A study of Mus musculus with 2 samples.

Results

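The regions described here are clear WT-only peaks of accessible chromatin: peaks of the WT list on chromosomes 1 to 19 that had no Tle4cKO peak overlapping them or within 500 bp of either edge and a pileup (the height of stacked fragments at the peak, as deposited) of 30 or more. They were chosen by the WT pileup and by the distance to the Tle4cKO list. There were 1663 of them among the 61223 WT peaks of that pileup on chromosomes 1 to 19 (2.72%, 95% Wilson interval 2.59% to 2.85%), in a WT list of 128737 peaks. The assay was ATAC-seq, which uses the transposase Tn5 to tag open DNA, on macrophages sorted from the colon as cells low in Ly6C, positive for CD64 and negative for Siglec-F. The animals were male C57BL/6 mice aged 18.9 weeks. The Tle4cKO mice were Tle4f/f with Lyz2-Cre, and the WT mice carried Lyz2-Cre as well. Lyz2-Cre acts in myeloid cells at large and not in colonic macrophages alone. There was 1 library for Tle4cKO and 1 for WT, each from the pooled cells of 2 mice. Without replicates, no test between genotypes was made. The intervals given cover counting error only.

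TLE4 is a Groucho-type corepressor. It does not bind DNA itself but is brought to it by factors such as RUNX, TCF/LEF and HES proteins, and it recruits histone deacetylases. Accessible peaks mark promoters and enhancers, and in macrophages many enhancers are opened by PU.1 together with C/EBP, RUNX and AP-1 factors.

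Few clear WT-only peaks lay on an annotated promoter, and the sequences under those that did are shown because they are the members for which DNA sequence was at hand. Of 31396 RefSeq promoter windows of GRCm38.p6, which run from 250 bases before to 50 after an annotated gene start, 36 windows of 31 genes were touched by a clear WT-only peak and 13555 others by shared peaks, which are WT peaks of pileup 30 or more that overlapped a Tle4cKO peak. Many of the 36 belong to predicted genes that do not code for protein. The windows under clear WT-only peaks held a median of 7 CG dinucleotides, as did all windows together, against 21 in windows under shared peaks. The windows under shared peaks were not matched to them in pileup or in kind of gene. Below are the parts of 4 such windows that lie before the start and inside the peak, written 5′ to 3′ on the gene's strand. They are shown for the gene with the strongest such promoter peak, for a gene with several clear WT-only peaks and for 2 further genes chosen after their values were seen. The letters of AP-1 (TGANTCA), the CCAAT box (CCAAT), PU.1 (GAGGAAGT), ETS (CCGGAAGT) and the TATA box (TATAAA) were searched on both strands, and capitals mark the matches, which here are AP-1 and CCAAT.
Sin3a (chr9:57071790-57072039, plus strand): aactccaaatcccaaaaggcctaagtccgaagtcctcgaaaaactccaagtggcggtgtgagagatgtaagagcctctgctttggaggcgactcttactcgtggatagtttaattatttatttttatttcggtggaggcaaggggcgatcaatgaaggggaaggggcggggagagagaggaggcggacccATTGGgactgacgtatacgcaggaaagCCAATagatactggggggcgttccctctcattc
Pde4b (chr4:102587308-102587386, plus strand): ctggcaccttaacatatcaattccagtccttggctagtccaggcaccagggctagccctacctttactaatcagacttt
St6gal1 (chr16:23290220-23290469, plus strand): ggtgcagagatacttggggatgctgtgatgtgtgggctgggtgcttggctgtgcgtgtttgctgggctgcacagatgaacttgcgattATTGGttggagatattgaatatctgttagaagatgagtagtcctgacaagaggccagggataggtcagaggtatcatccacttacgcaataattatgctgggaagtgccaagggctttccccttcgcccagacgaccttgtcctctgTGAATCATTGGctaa
Asb2 (chr12:103338391-103338640, minus strand): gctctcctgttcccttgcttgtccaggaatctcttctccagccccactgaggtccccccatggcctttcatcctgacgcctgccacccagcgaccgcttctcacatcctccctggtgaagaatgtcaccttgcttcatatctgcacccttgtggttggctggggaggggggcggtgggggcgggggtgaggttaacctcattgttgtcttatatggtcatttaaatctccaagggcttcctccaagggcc

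Sin3a encodes the scaffold of a histone deacetylase complex, and its stretch held 12 CG dinucleotides and a CCAAT box on each strand. The peak above it had a pileup of 105 and lay 507 bp from a Tle4cKO peak, just inside the distance limit. Pde4b encodes a cyclic AMP phosphodiesterase. Beside the start shown, 1 of its 4 annotated starts, a peak of pileup 62 ended before the start itself, and the stretch held 0 CG dinucleotides. St6gal1 encodes a sialyltransferase, and its peak of pileup 58 covered the start shown, 1 of 3. There the AP-1 letters overlap a CCAAT box on the opposite strand. Asb2, which encodes a substrate adaptor of a ubiquitin ligase, had a pileup of 64 at 1 of 2 starts and the stretch shown held none of the motifs searched. Over the 36 windows, AP-1 letters were found in 8.33%, against 5.50% of windows under shared peaks and 7.84% of all windows. CCAAT was found in 30.6%, against 36.7% and 37.3%, and TATAAA in 8.33%, against 6.74% and 13.6%. The ETS letters CCGGAAGT were in 2.78%, against 8.11% and 3.95%. The PU.1 letters GAGGAAGT were in 0 of the 36 windows, against 3.67% of windows under shared peaks and 3.25% of all. With 36 windows, some of them overlapping, these shares describe the windows only, and a match is a run of letters and not a shown binding site.

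Clear WT-only peaks were drawn mostly from the lower part of the range allowed. Their pileup had a median of 40 and ran from 30 to 135, against a median of 71 and a range of 30 to 314 for the 58961 shared peaks. The share of WT peaks that were clear WT-only was 7.0% at pileups of 30 to 39 (787 peaks) and 5.45% at 40 to 49 (449 peaks). It was 3.11% at 50 to 66, 0.885% at 67 to 99 and 0.0510% at 100 or more, where 10 of 19602 peaks qualified. The rule used these values, so they are given as a description. At the pileup limit, 199 peaks had a pileup of 30 or 31 and 238 that met the distance rule had 28 or 29. At the distance limit, 53 peaks lay 501 to 550 bp from a Tle4cKO peak and 52 lay 451 to 500 bp away. A further 599 WT peaks overlapped no Tle4cKO peak but lay within 500 bp of one.

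A missing row is not a measured zero. The Tle4cKO list begins at a pileup of 7. At shared peaks with WT pileups of 30 to 39 the overlapping Tle4cKO peak had a median pileup of 23 and a 5th percentile of 14. At WT pileups of 67 to 99 these values were 57 and 39. Read counts at the clear WT-only positions were not analysed here. Under the mirrored rule, 246 of 47232 Tle4cKO peaks of pileup 30 or more were clear Tle4cKO-only (0.521%). At a pileup of 21 or more, which takes the same share of the Tle4cKO list as 30 does of the WT list, there were 624 of 61268 (1.02%, 0.942% to 1.10%), fewer than the 1663 in WT.

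Most clear WT-only peaks lay beside strong accessible peaks, which the rule did not ask for. Of the 1663, 1371 (82.4%, 80.5% to 84.2%) had another WT peak with a pileup of 100 or more within 5 kb, against 21.8% of shared peaks weighted to the same pileup classes. The strongest other WT peak within 5 kb had a median pileup of 143 for clear WT-only peaks and 41 for the weighted shared peaks. That strongest neighbour overlapped a Tle4cKO peak for 1643 of the 1650 clear WT-only peaks that had a neighbour (99.6%), and for 89.0% of shared peaks weighted on pileup and 99.7% of those weighted on both pileup and neighbour. It lay a median of 2258 bp away (quartiles 1232 and 3254 bp). The nearest other WT peak was the higher of the pair for 1403 peaks (84.4%), against 42.2% of shared peaks weighted on pileup and 77.2% of those weighted on both. It was itself shared for 1473 (88.6%), against 79.2% and 90.4%.

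The share was higher beside higher neighbours. It was 0.111% (0.0647% to 0.189%) among WT peaks with no other WT peak within 5 kb, 0.103% where the strongest neighbour was under 30, 0.498% at 30 to 66 and 2.38% at 67 to 99. It reached 5.51% (5.11% to 5.94%) at 100 to 149 and 8.94% (8.35% to 9.58%) at 150 or more. Among peaks of pileup 30 to 39 alone, it was 0.568% with no neighbour and 33.3% (208 of 625 peaks) beside a neighbour of 150 or more. The mirrored Tle4cKO-only peaks of pileup 30 or more showed a gradient in the same direction, 0.0102% with no neighbour and 1.86% beside a Tle4cKO peak of 150 or more. The WT list also held few weak peaks near strong ones. With a neighbour of 150 or more within 2 kb, 0% of 3655 WT peaks on these chromosomes had a pileup under 20 and the lowest decile was 44, whereas with no neighbour within 2 kb 41.9% were under 20. How peak calling next to strong peaks bears on the clear WT-only set was not tested, and no source used here gives the calling thresholds.

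**Figure D1:**
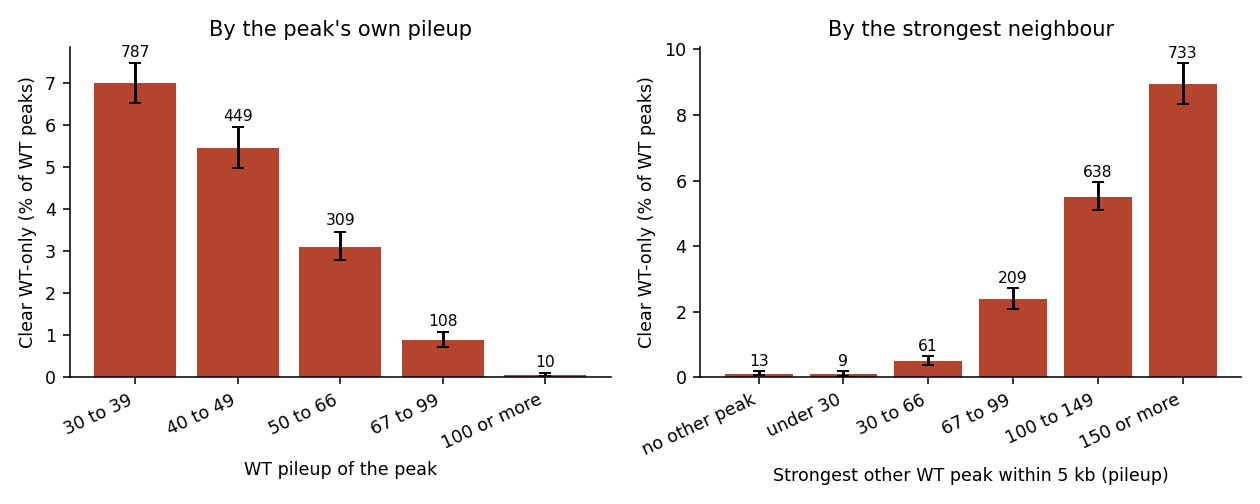
Share of WT peaks of pileup 30 or more on chromosomes 1 to 19 that were clear WT-only, by the peak's own pileup (left) and by the pileup of the strongest other WT peak within 5 kb (right). Bars are percentages with 95% Wilson intervals, and the number of clear WT-only peaks stands above each bar. By the peak's own pileup the share was 7.0% in the lowest class and 0.0510% in the highest, and by its neighbour's 0.111% with none and 8.94% at 150 or more.

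Shared peaks near clear WT-only peaks had Tle4cKO to WT pileup ratios slightly above those of shared peaks elsewhere. A Tle4cKO and a WT peak formed a pair where each was the highest of the other list to overlap it. The 3027 pairs with a WT pileup of 30 or more within 5 kb of a clear WT-only peak had a median Tle4cKO to WT pileup ratio of 0.761 (quartiles 0.690 and 0.824). The 55483 pairs farther away had a median of 0.745 when weighted to the same pileup classes. In each of the 5 pileup classes the ratio was slightly higher near clear WT-only peaks, with 0.689 against 0.674 at 40 to 49 and 0.788 against 0.778 at 100 or more. Of the 3027 pairs, 43.3% lay below the weighted median of the pairs farther away, and no test was made. The libraries' scaling is not recorded, so the ratios are read against each other only.

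Clear WT-only peaks were narrow for their height. Their median width was 414 bp, against 798 bp for shared peaks weighted on pileup and 616 bp for shared peaks weighted on both pileup and the strongest neighbour. The difference was present in every pileup class, with 427 bp against 756 bp at 30 to 39 and 303 bp against 972 bp at 67 to 99. The rule bears on width too, since a wider peak more readily overlaps a Tle4cKO peak or comes within 500 bp of one. How much of the difference follows from the rule was not tested. The widths fell into 2 groups: 557 peaks (33.5%, 31.3% to 35.8%) were under 250 bp, close to the lowest width of 200 bp, 49 peaks were 300 to 349 bp, and 276 peaks were 500 to 549 bp. Widths under 250 bp made up 2.05% of shared peaks weighted on pileup and 7.39% of those weighted on pileup and neighbour. Narrow widths were more frequent beside strong peaks: 39% of clear WT-only peaks were under 250 bp where the strongest neighbour was 150 or more, and 13.1% where it was 30 to 66. The 5 widest were 1474 bp in Tnks, 1269 bp in Itprid2, 1257 bp beside Itprid2, 1068 bp near S100z and 1061 bp near Med30, with pileups of 30 to 39.

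**Figure D2:**
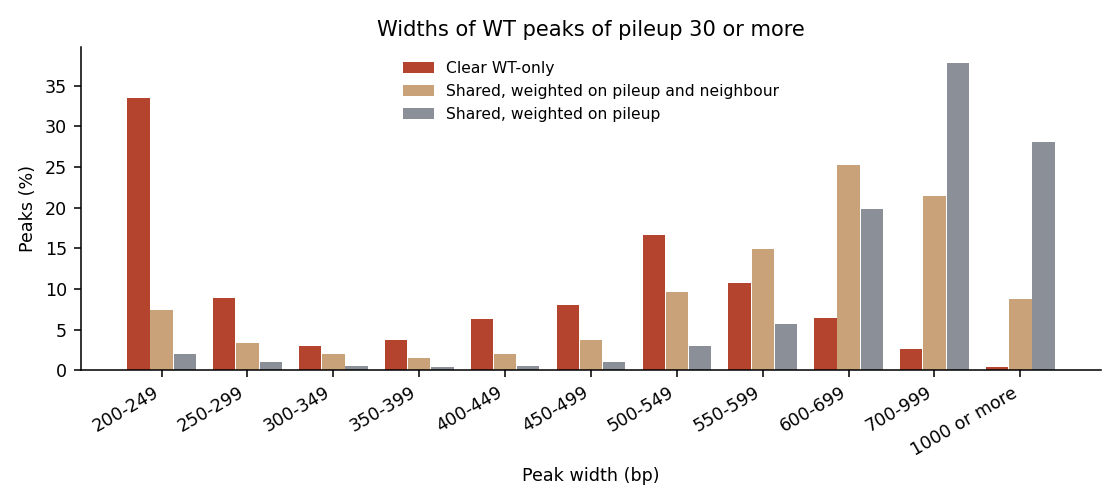
Widths of clear WT-only peaks, and of shared WT peaks weighted to the same pileup and neighbour classes or to the same pileup classes, as percentages per width class in bp; the classes from 600 bp upwards are wider than the others. Clear WT-only peaks have a group at 200 to 249 bp (33.5%) and another at 500 to 549 bp (16.6%), while the shared peaks lie mostly at 550 bp and above.

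Relative to gene starts, clear WT-only peaks were found less at the start and more at a few kb from it than shared peaks. The summit lay within 1000 bp of an annotated start of a protein-coding gene for 38 of the 1612 clear WT-only peaks on chromosomes with starts in the table (2.36%, 1.72% to 3.22%), against 4.49% of shared peaks weighted on pileup and 3.50% of those weighted on both. The rule bears on this value, since a peak within 500 bp of a Tle4cKO peak could not qualify and most starts with a nearby clear WT-only peak lay under a shared one. Between 1000 and 5000 bp lay 545 clear WT-only peaks (33.8%, 31.5% to 36.2%) against 8.57% of shared peaks weighted on pileup and 20.2% of those weighted on pileup and neighbour. They lay on both sides of the start, 252 before it and 293 after it. For 513 of the 545 (94.1%, 91.8% to 95.8%) the start itself was covered by a shared WT peak, whose pileup had a median of 161. Another shared peak covered the start for 66.4% of shared peaks at this distance when weighted on pileup, and for 87.7% when weighted on both. The median distance from the summit to the nearest start was 12643 bp, against 27617 bp for shared peaks weighted on pileup and 16627 bp for those weighted on both. Starts were at hand for 16456 of the 20661 protein-coding genes and for none on chromosome 18, which holds 51 clear WT-only peaks.

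**Figure D3:**
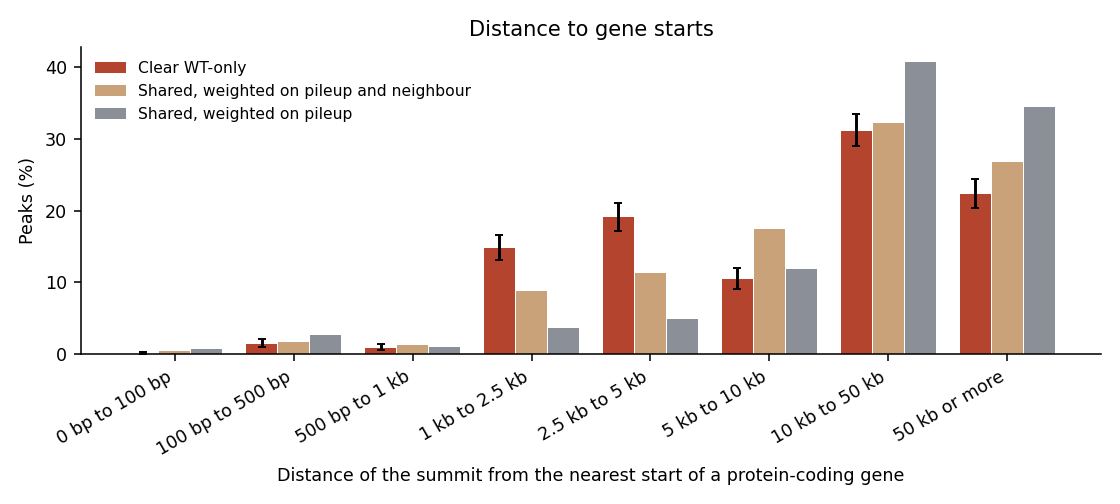
Distance in bp or kb from the peak summit to the nearest annotated start of a protein-coding gene, as a percentage of 1612 clear WT-only peaks (with 95% Wilson intervals) and of weighted shared WT peaks. Clear WT-only peaks exceed both sets of shared peaks between 1 and 5 kb and lie below them within 500 bp.

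Counting both ends of genes, 129 clear WT-only peaks (7.76%, 6.57% to 9.14%) lay within 1000 bp of the first or last base of a protein-coding gene, against 9.51% of shared peaks weighted on pileup. Gene bodies held 927 (55.7%, 53.3% to 58.1%), against 49.9%, and 607 (36.5%) lay outside genes, against 40.6%. Without weighting, 21.6% of shared peaks were at gene ends. The order at gene ends turned with the distance used. Within 2500 bp of a gene end lay 24.5% of clear WT-only peaks (22.5% to 26.6%), against 16.2% of shared peaks weighted on pileup and 21.4% of those weighted on both. Gene bodies then held 46.8%, against 46.1% and 43.6%. Another WT peak lay within 1000 bp of 595 clear WT-only peaks (35.8%), against 33.1% of shared peaks weighted on pileup and 40% of those weighted on both. All 19 chromosomes held clear WT-only peaks. As a share of a chromosome's WT peaks of pileup 30 or more they were lowest on chromosome 13 (1.99%, 1.55% to 2.56%, 59 peaks) and highest on chromosome 15 (3.50%, 2.86% to 4.27%, 92 peaks). By number they were fewest on chromosome 18, with 51, and most on chromosome 2, with 156.

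The 20 clear WT-only peaks with the highest pileup, 89 to 135, included 2 at H2-Aa, 2 in Tcof1 and 2 nearest to Cebpb. All 20 had a WT peak of 137 to 255 within 5 kb, and 10 were under 300 bp wide. The 2 highest lay side by side 3683 and 4050 bp from H2-Aa, the alpha chain of an MHC class II molecule, with pileups of 135 (chromosome 17, 34291506 to 34291724) and 125 (34291873 to 34292088). A gap of 149 bp separated them. The nearest Tle4cKO peak had a pileup of 182 and lay 1479 and 1115 bp away. Peaks of 109 (chromosome 18, 60816463 to 60816830) and 100 (60815402 to 60815851) lay in Tcof1, which encodes a nucleolar protein of ribosome production. They are also within 10 kb of Cd74, the MHC class II invariant chain. In Atp6v0c, a subunit of the proton pump that acidifies lysosomes, a peak of 110 was 211 bp wide and its summit lay 1548 bp after the gene start.

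Srgn, the granule proteoglycan serglycin, held a peak of 109, 3880 bp after its start. Outside genes a peak of 109 lay 18490 bp from Fgd2, which activates the GTPase Cdc42. Cebpb encodes a C/EBP factor of myeloid cells. A peak of 96 lay 256 bp from its span and another of 96 lay 81429 bp away, and the nearest Tle4cKO peaks were 649 and 659 bp from them. Txn1, the redox protein thioredoxin, held a peak of 100, and Mcl1, an inhibitor of cell death, one of 97. Runx1, a DNA-binding partner of TLE proteins, held one of 89, 206 bp wide. The others lay in Tspoap1 (103), Ehbp1l1 (99), Rnf167 (94), Lrp1 (93), an endocytic receptor, and Midn (92), and outside genes nearest to Gadd45b (94), a stress-response gene, and Klf14 (93), which was 162308 bp away.

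A small set had no strong peak nearby. The strongest other WT peak within 5 kb was under 30, or there was none, for 22 of the 1663 clear WT-only peaks. Of these, 12 lay outside genes and 10 in gene bodies, with 0 at gene ends. Their pileups ran from 30 to 61 with a median of 33. Their median width was 687 bp, against 414 bp for all 1663, and 21 of the 22 were 600 to 1042 bp wide. The genes named for these peaks were chosen after their values were seen. The highest, with a pileup of 61 and a width of 724 bp (chromosome 6, 10690285 to 10691008), lay 1209364 bp from the nearest protein-coding gene, Ndufa4. The nearest Tle4cKO peak was 159842 bp away and had a pileup of 8, the largest distance in the set. A second WT peak, of pileup 27, lay 254 bp from it. Next came a peak of 46 lying 8185 bp from Arhgap31, which encodes a GTPase-activating protein for Rac and Cdc42, with the nearest Tle4cKO peak 6646 bp away. A peak of 42 lay outside genes near Aig1, one of 41 in Tbxas1, the thromboxane synthase gene expressed in macrophages, and one of 38 in Tcf20. A peak of 37 lay 9838 bp from Cd28. Those of 35 in Pde7b and 30 in Ms4a13 were 22045 and 18325 bp from a Tle4cKO peak.

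Several genes held more than 1 clear WT-only peak. Counting each gene together with flanks of 10 kb, 1591 of 20661 protein-coding genes held at least 1 (7.70%; 10.6% of the genes that had any WT peak of pileup 30 or more), and 230 held 2 or more (1.11%). Since flanks of neighbouring genes overlap, a peak can count for several genes, and 279 of the 1663 peaks lay in no gene or flank. The number followed how many WT peaks a gene has. A clear WT-only peak was present at 4.51% of genes with 1 to 4 WT peaks of pileup 30 or more, at 34.6% of genes with 10 to 19 and at 15 of the 16 genes with 40 or more. For each gene a class-matched number was therefore computed, which is the number of clear WT-only peaks its WT peaks would hold at the shares of all WT peaks in the same classes of pileup and strongest neighbour. The genes described next were picked for holding the most, so counts above the class-matched number follow in part from that choice.

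Prex1, which encodes an activator of Rac GTPases, held the most. Its 6 clear WT-only peaks had pileups of 30, 31, 66, 43, 41 and 79 in order along chromosome 2 (166632723 to 166715954), among 35 WT peaks of pileup 30 or more, with a class-matched number of 1.26. Of the 6, 5 lay in the gene's span and 5 were under 300 bp wide. Pde4b held 5, with pileups of 40, 62, 47, 53 and 50, among 31 WT peaks and a class-matched number of 1.72. All lay in the gene, and 3 of them lay together at 102603414 to 102606995 on chromosome 4. Etv6, an ETS-family repressor, held 5 with pileups of 30 to 59 among 65 WT peaks, against a class-matched 3.52. P2rx7, the ATP-gated channel upstream of the inflammasome, had 48, 70, 60 and 37 (class-matched 0.768). P2ry13, an ADP receptor, had 31, 37, 43 and 64 (0.332), and the same 4 peaks also lie in Med12l, whose span contains P2ry13. Those 4 formed the longest run of clear WT-only peaks within 10 kb of one another, at 59201744 to 59208610 on chromosome 3.

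Mapkapk2, a kinase downstream of p38 that stabilises cytokine mRNAs, held 4 peaks of 32, 35, 75 and 57, Jmjd1c, of the histone demethylase family, 4 of 45 to 52, and Hpcal1, a calcium sensor, 4 of 30 to 58. Runx1 held 3, of 62, 53 and 89, against a class-matched 1.02, each 206 to 216 bp wide. Batf3, a transcription factor of the AP-1 superfamily, held 3 of 49, 55 and 58, all in its flanks, against 0.609. Plec, Kazald1, Smim14 and Tcof1 held 3 each. Of the 9 genes with 4 or more, 2 also held a clear Tle4cKO-only peak of pileup 21 or more, Prex1 and Etv6 with 1 each. Of the 35 genes with 3, 10 did (28.6%), among them Tcof1 with 2 and Zeb2 with 4. The 9 genes and the 6 of those with 3 that had the highest summed pileup are the 15 genes plotted. Of the 54 different peaks in these 15 genes, 43 had a WT peak of 100 or more within 5 kb and 25 were under 250 bp wide. Among all 230 genes with 2 or more, 47 also held a clear Tle4cKO-only peak (20.4%). The same was true of 2.78% of all protein-coding genes, and of 16.7% of the genes with fewer than 2, when these were weighted to the same classes of WT peaks per gene. Tle4 itself held 0. Its highest WT-only peak, at 14588191 to 14588736 on chromosome 19, had a pileup of 29, just under the limit.

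**Figure D4:**
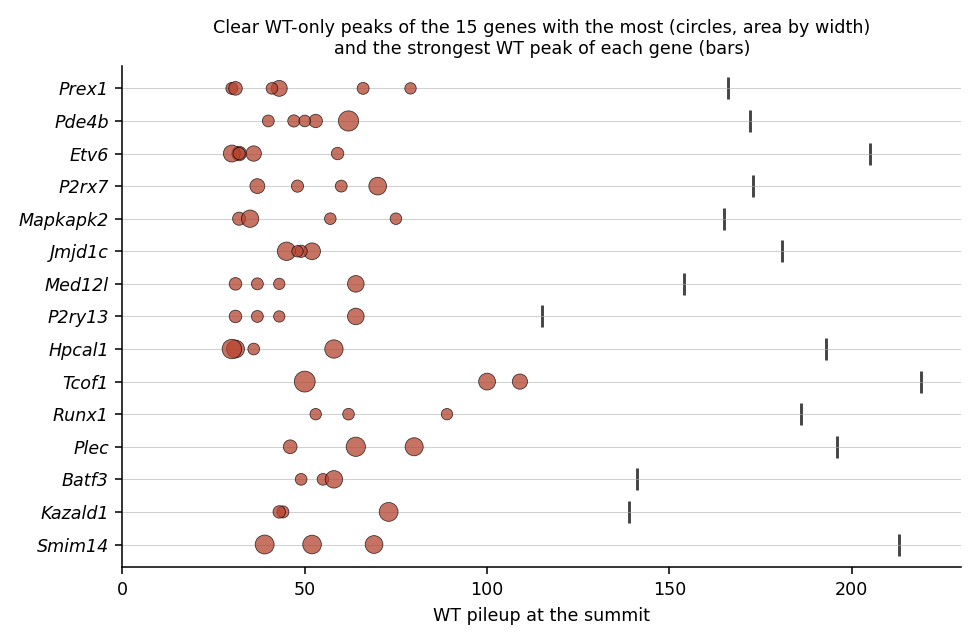
Clear WT-only peaks of the 9 protein-coding genes holding 4 or more and of the 6 with the highest summed pileup among the 35 holding 3, with flanks of 10 kb. Each circle is a peak at its WT pileup, with its area in proportion to its width, and the vertical mark is the strongest WT peak of the gene. The strongest marks stand at 115 to 219 and the clear WT-only peaks at 30 to 109.

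Of the gene lists compared, macrophage transcription factors held the most clear WT-only peaks. Over all 29 lists, 83 of 353 genes (23.5%) held at least 1, against 7.70% of all protein-coding genes. The lists are rich in strong peaks, and 107 of their 2369 WT peaks were clear WT-only (4.52%), against 2.72% of all. Their class-matched number was 78.4. Found numbers were above the class-matched ones in 20 lists and below in 8, with no test. Some genes, such as Cx3cr1, stand in more than 1 list, and several differences on either side were under 1 peak. Clear Tle4cKO-only peaks of pileup 21 or more lay at some of the same genes, 4 at Zeb2, 2 at Irf8 and 1 each at Cd63, Cd74, H2-DMb1, Vsir, Fos, Dvl1, Hdac7, Cd36 and Elmo1. Genes named beyond the first 4 of a list were chosen after their values were seen. The transcription factor list held 20 among 273 WT peaks (7.33%, 4.79% to 11.0%), with a class-matched number of 8.18, at 11 of 26 genes. Besides Runx1 and Batf3, Zeb2 held 3 of 34 to 41, Spi1, which encodes PU.1, held 2 of 66 and 55, Nr4a1, an orphan nuclear receptor, 2 of 43 and 64, and Ikzf1 2 of 48 and 38. Bcl6, a repressor, held 1 of 63, and Irf8 held 1 of 35.

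Among macrophage identity genes 7 of 22 held a clear WT-only peak, with 7 peaks against a class-matched 3.40. Cx3cr1, the fractalkine receptor, held 2 of 38 and 42. The tetraspanin genes Cd81 and Cd63 held 1 each, of 66 and 65, and a single peak of 41 lies within 10 kb of both Itgam and Itgax, the genes of integrins CD11b and CD11c. Adgre1, which encodes F4/80, held 1 of 39. MHC class II genes held 5 peaks among 95 WT peaks (class-matched 2.82), which were the pairs at H2-Aa and Cd74 and 1 of 39 at H2-DMb1. MHC class I genes held 2 (1.90), at H2-D1 and B2m. Costimulatory genes held 5 (2.60), with 2 at Cd86 and 1 each at Cd40 (71), Cd80 (53) and Vsir.

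Chemokine receptor genes held 5 (2.94), 2 of them at Cmklr1, the chemerin receptor. The list of pro-inflammatory cytokine and related genes held 4 (2.33). Of these, 2 of 54 and 34 lay after the start of Ptgs2, which encodes cyclooxygenase-2, and 1 each at Il6 (33) and Il1b (30). Anti-inflammatory genes held 7 (5.97), with 2 each at Stat3 (73 and 67), Tgfbr1 (74 and 41) and Il10ra (42 and 46) and 1 at Nfil3 (36). Interferon response genes held 4 (2.09), at Irf1, Ifnb1, Rsad2 and Usp18. NF-kappaB and TLR genes held 5 (3.38), 2 of them at Nfkb2 (85 and 32) and 1 at Map3k8 (63). The peak of 32 lay in the flank of Nfkb2, inside the neighbouring gene Psd. Chemokine genes held 3 (2.32), the highest 55 at Cxcl2. The list of matrix metalloproteinase and related genes held 3 (1.99), of 66 at Mmp12, 40 at Timp2 and 36 at Adam17.

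Phagocytosis genes held 10 (8.46), with 3 at Vav3, a Rac activator, 2 of 35 and 81 at Itgb5, which encodes an integrin subunit used in the uptake of dying cells, and 1 of 70 at Itgb2. Lysosome genes held 5 (5.07), led by Atp6v0c (110) and Lipa (84), the lysosomal acid lipase. Of the pathways that recruit TLE proteins, Notch and HES genes held 7 (5.32), with 2 each at Notch2 and Maml2 and 1 each at Notch1 (51), Rbpj (38) and Maml3 (34). Wnt and TCF/LEF genes held 2 (1.93), of 53 at Dvl1 and 30 at Tcf7l2. TLE genes and partners held 4 (3.64), at Sin3a, Tle6 (58), Hdac7 (52) and a shared one of 39 within 10 kb of both Tle2 and Tle5. AP-1 genes held 1 of 47 at Fos (class-matched 2.40). Clock genes held 0 of 52 WT peaks (class-matched 0.898) and housekeeping genes 0 of 39 (1.43). With 0 found, the 95% Wilson interval allows shares of up to 6.88% and 8.97%.

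**Figure D5:**
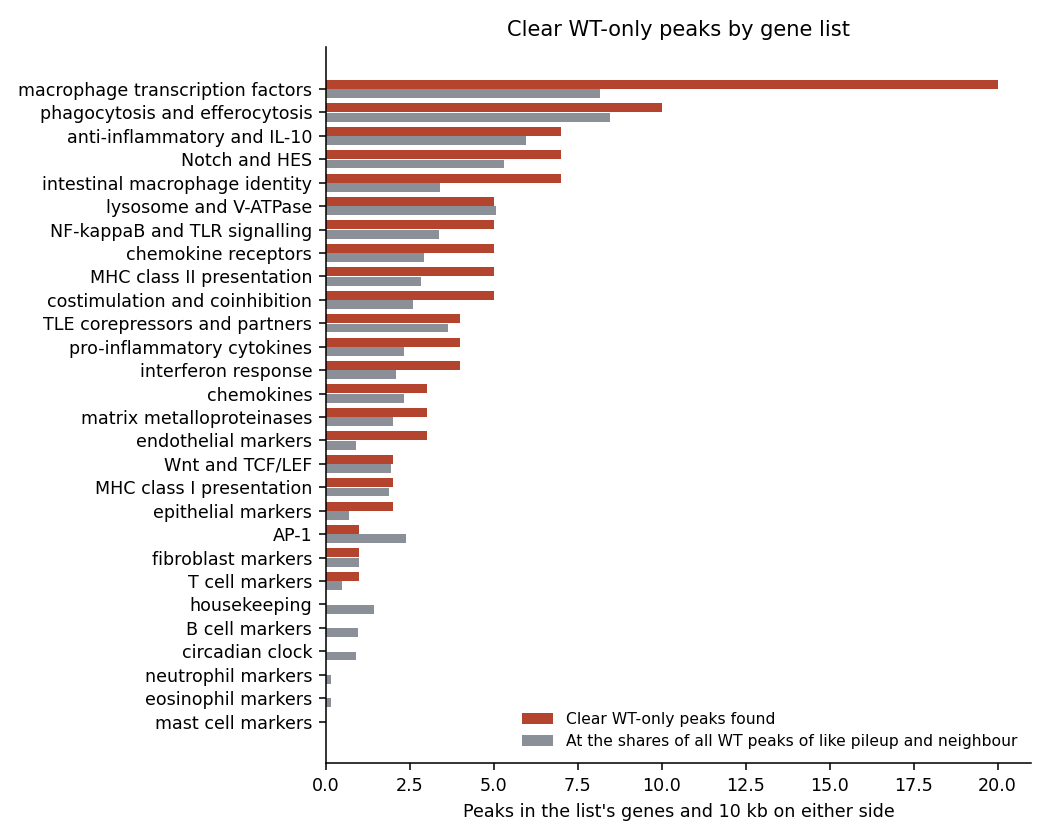
Number of clear WT-only peaks in the genes of each list reported, flanks of 10 kb included, beside the number these genes' WT peaks would hold at the shares of all WT peaks in the same classes of pileup and strongest neighbour. Macrophage transcription factors held 20 against 8.18, and AP-1 genes 1 against 2.40.

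Genes that mark other cell types were also looked at, since the sort can carry other cells. B cell, neutrophil, eosinophil and mast cell marker genes held 0 clear WT-only peaks, among 17, 7, 11 and 4 WT peaks of pileup 30 or more. Their class-matched numbers were 0.9502, 0.169, 0.148 and 0, so finding 0 says little about these lists. T cell markers held 1 of 38 (class-matched 0.481), which lay inside P3h3 and was counted for Cd4 through its flank of 10 kb. Fibroblast markers held 1, of 53 at Pdgfrb (class-matched 0.984). Epithelial markers held 2 among 10 WT peaks (class-matched 0.685), of 34 and 36. Both lay inside Krt78 and were counted for Krt8 through its flank of 10 kb, with 0 in the span of Krt8. Endothelial markers held 3 among 24 WT peaks (class-matched 0.902), with 49 and 51 in Pecam1 and 34 in Kdr. A peak at a gene end was present in the Tle4cKO and the WT list at 21 and 22 of 22 macrophage identity genes. For endothelial markers these numbers were 1 and 3 of 4, for epithelial markers 3 and 4 of 6, and for neutrophil markers 3 and 4 of 5. They were the same in both lists for B cell markers (5 of 5), T cell markers (4 of 6), fibroblast markers (4 of 5), eosinophil markers (2 of 4) and mast cell markers (1 of 4). Their part in the clear WT-only set was not tested, and in pooled cells a loss of accessibility per cell and fewer cells of a type cannot be told apart.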

How the data were processed

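The authors deposited 1 ATAC-seq peak list per library, called separately, with position, width, summit and pileup. The pileup is a signal in whole numbers, per the file headers and values, and is the authors' own value per peak; the width in bp is end minus start plus 1 in the deposited files. Per the submitters' processing notes the build was mm10, and MACS2 2.1.1, HOMER 4.7.2, Bowtie2 2.2.5 and cutadapt 1.14 were among the tools, with no role given. Thresholds, read shifting, duplicates, read totals and scaling are in no source used here, so depth is unknown.

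Gaps between peak edges, gene spans and starts were computed with Python 3.11.15 and pandas 2.3.3, with names and positions from RefSeq GRCm38.p6, the assembly behind mm10; bedtools 2.31.1 gave the same 1663 peaks. As a check of the distance computation, intervals were planted at set distances from Tle4cKO peaks. All 200 of 200 beyond 500 bp were taken, and 0 of 200 nearer ones. This outcome is fixed by the placing and does not bear on peak calling. Shared peaks were weighted to the clear WT-only peaks in 9 pileup classes, or in these combined with 6 classes of the strongest WT neighbour within 5 kb. Gene-end and gene-body classes used protein-coding genes of chromosomes 1 to 19. Shares have 95% Wilson intervals. Named genes were those nearest to the 20 strongest and 5 widest peaks, the 15 genes with the most (ties by summed pileup), up to 4 per list and Tle4, without predicted genes. Of 363 list genes, 353 were protein-coding genes on chromosomes 1 to 19; 1 list enters the totals but is not reported by itself here. The peak set and the gene lists were chosen with earlier results of these data known, and the neighbour classes and the class-matched numbers were added after the data were seen. Alternatives are in the closing section.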

Additional observations from a re-analysis of the deposited data

Results flagged for a closer look

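Outside chromosomes 1 to 19 the same rule found 15 peaks among 1203 WT peaks of pileup 30 or more on the X chromosome (1.25%, 95% Wilson interval 0.757% to 2.05%) and 1 among 36 on unplaced sequences. They are listed here because these sequences were not part of the set described. On the Y chromosome 0 of 13 peaks met the rule, which allows a share of up to 22.8% by the same interval.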

How the results depend on the processing

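Of 36 values under alternative settings, 14 stayed within the interval of the reported value, or within 1.5 times of a reported count, and 22 did not. With no overlap asked in place of a distance, the median width was 331 bp, the share at gene ends 9.73%, the share with another WT peak within 1000 bp 51.5% and the genes with 2 or more 362. At a distance of 1000 bp, that neighbour share was 10.9% and the genes 133. At a minimum pileup of 20 there were 3789 peaks with a median width of 472 bp, 6.39% at gene ends, 32.5% with a near neighbour and 622 genes. At a minimum of 50 there were 427 peaks, with 361 bp, 38.4% and 35 genes. With Tle4cKO peaks of pileup 15 or more alone, the width was 504 bp and the neighbour share 32.7%. Gene ends of 2500 bp held 24.5%, above the 16.2% of shared peaks weighted on pileup where 1000 bp gave a lower share, and left 46.8% in gene bodies, against 46.1%. The share at gene ends by summit, an alternative chosen after seeing the data, was 6.19%. The genes with 2 or more numbered 129 by gene span alone and 781 with 50 kb. The number of peaks and the number of genes follow directly from the distance, pileup and flank settings. For the other moves, those of the neighbour share included, the cause was not tested. The share in gene bodies stayed within its interval under all settings but the wider gene ends. No paired analysis was possible because each genotype has 1 library. Depth is unknown, so a peak missing from the Tle4cKO list may lie under its calling limit.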
